A study of Mus musculus with 51 samples.

Results

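Distal open sites in chromatin state 4 are stretches of accessible DNA in mouse male germ cells that lie away from gene starts, in 1 of the 11 classes of a deposited segmentation of the genome. The segmentation was made from histone marks of C57BL/6J (B6) germ cells. The labels tie it to 6 marks, H3K4me1, H3K27me3, H3K9ac, H3K27ac, H2B120ac and H2A.Z, but which of them mark state 4 is not given in the sources used here, so the class is called by its number. Sites were taken from the 81887 regions of the deposited ATAC table of B6 and Prdm9 knock-in germ cells (mm10). ATAC-seq cuts accessible DNA with a transposase and counts the fragments. A site had to lie on an autosome, over 1 kb from any annotated transcription start (TSS), with its midpoint in state 4. It could overlap no peak of DMC1, the recombinase on meiotic break ends, and no peak of the remodeller HELLS. Of 8990 autosomal regions centred in state 4, 512 lay within 1 kb of a TSS and 249 others carried a DMC1 or HELLS peak. The remaining 8229 regions are described here. They made up 16.5% of the 49831 regions, of any state, that met the other criteria, and the 41602 in other states are called the other distal sites.

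All ATAC and histone libraries came from enriched germ cells of animals 12 to 14 days old. KI cells came from the B6-Prdm9CAST-KI strain, which carries the CAST allele of Prdm9 on a B6 background, and were set against B6 cells (2 ATAC libraries each, and 2 KI and 3 B6 H3K9ac libraries). Hells CKO cells, from a conditional knockout of Hells, were set against Hells wt cells (3 and 2 ATAC libraries, 3 and 1 H3K4me3 libraries). The Cre driver of the knockout is not given in the sources used here. Spo11/Spo11 mutant cells were set against B6 for H3K9ac (1 and 3 libraries) and against Spo11/+ for H3K4me3 (2 and 1 libraries). In germ cells of the (B6xCAST) F1 hybrid the B6 and CAST alleles were counted apart (2 ATAC libraries and 1 H3K9ac library). The DMC1 lists used to exclude sites came from testes of Hells het and Hells CKO animals aged 6 weeks, and the HELLS list from testes of KI animals aged 12 to 14 days. No DMC1 map of KI germ cells entered the choice of sites.

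Distal open regions of this kind are where sequence-specific factors bind away from promoters, and their number and identity differ between cell types. DMRT1, a DM-domain transcription factor of spermatogonia and Sertoli cells, is known in mouse for holding back meiotic entry in spermatogonia. PRDM9 is a zinc-finger methyltransferase that binds recombination hotspots in early meiosis, methylates the histones beside them and so places the breaks that SPO11 makes. Its CAST and B6 alleles carry different zinc fingers and bind different sequences. HELLS is a SNF2-family remodeller that acts with PRDM9.

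The 8 letters TACAATGT, the core of the DMRT element, were found within 150 bp of the midpoint of 724 state 4 sites. The sequences below show this element in 6 of the most open state 4 sites that hold it, chosen after the values were seen. Each is 100 bases of the mm10 plus strand, 5′ to 3′, with the match on either strand in capitals.
near Pappa, chr4:65003595-65003694: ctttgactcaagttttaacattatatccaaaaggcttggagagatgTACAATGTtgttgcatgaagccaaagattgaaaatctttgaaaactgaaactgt
near Speer2, chr16:69949067-69949166: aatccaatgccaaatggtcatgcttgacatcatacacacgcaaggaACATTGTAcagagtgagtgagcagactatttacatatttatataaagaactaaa
near Mmp16, chr4:17939554-17939653: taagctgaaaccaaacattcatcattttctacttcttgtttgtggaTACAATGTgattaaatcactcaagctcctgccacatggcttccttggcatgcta
near Ackr3, chr1:90402119-90402218: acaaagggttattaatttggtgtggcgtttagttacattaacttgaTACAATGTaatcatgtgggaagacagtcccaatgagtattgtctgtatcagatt
near Agbl1, chr7:76864772-76864871: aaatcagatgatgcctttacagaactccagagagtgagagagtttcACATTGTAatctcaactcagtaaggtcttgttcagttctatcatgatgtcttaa
near Kirrel3, chr9:34823410-34823509: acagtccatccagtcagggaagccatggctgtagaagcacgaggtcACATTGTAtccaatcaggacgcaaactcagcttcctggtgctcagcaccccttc
The capitals near Speer2, Agbl1 and Kirrel3 read ACATTGTA, which is the same element on the minus strand. The element shares the letters ACAATG with the SOX motif that was also searched, AACAATGG, but no stretch of 8 bases matches both.

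The next 4 sequences are from state 4 sites that were more open in KI than in B6 cells. Capitals mark 8-letter words, again on either strand, that were most over-represented at the KI-higher sites of the other states (ATGTGACC, AGGTCACA, AAGTCACA, AAAGGTCA and AGTCACAT, which overlap each other in part). The sites were chosen after the values were seen, as those with the lowest p that hold such a word.
near Klf6, chr13:6044428-6044527: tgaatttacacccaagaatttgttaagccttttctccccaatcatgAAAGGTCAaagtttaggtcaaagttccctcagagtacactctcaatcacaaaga
near Maf, chr8:115654141-115654240: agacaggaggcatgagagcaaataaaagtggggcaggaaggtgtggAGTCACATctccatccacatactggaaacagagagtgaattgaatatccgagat
near Mtx3, chr13:92889244-92889343: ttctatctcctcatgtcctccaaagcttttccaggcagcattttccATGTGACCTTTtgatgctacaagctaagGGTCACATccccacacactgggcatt
near Sdccag8, chr1:177113021-177113120: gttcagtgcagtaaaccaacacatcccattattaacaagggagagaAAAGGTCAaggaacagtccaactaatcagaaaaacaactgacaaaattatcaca
The site with the lowest p of all held none of these words within 150 bp of its midpoint, and 300 bases about that midpoint are given because several results below turn on it.
in a Hormad2 intron, chr11:4368982-4369281: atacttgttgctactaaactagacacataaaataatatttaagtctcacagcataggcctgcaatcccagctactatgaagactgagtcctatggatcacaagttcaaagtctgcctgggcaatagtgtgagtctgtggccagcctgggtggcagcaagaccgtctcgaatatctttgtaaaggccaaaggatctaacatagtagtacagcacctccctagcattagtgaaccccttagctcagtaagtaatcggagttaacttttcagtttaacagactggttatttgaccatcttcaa
A site in an intron of Wt1os, the antisense transcript of the Sertoli cell gene Wt1, was among the 2 most open state 4 sites and held neither kind of match.
in a Wt1os intron, chr2:105108828-105109127: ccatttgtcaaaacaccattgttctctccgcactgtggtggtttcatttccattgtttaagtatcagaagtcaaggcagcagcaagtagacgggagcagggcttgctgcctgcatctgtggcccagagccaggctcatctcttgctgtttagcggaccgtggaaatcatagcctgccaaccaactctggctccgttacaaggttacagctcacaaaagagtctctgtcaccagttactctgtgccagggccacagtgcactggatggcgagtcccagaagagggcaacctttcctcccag

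Compared with the other distal sites, state 4 sites were narrow, remote and AT-rich. Their median width was 472 bp, against 581 bp at the other distal sites, and their median distance to a TSS was 18.9 kb (quartiles 8.16 and 43.5 kb), against 11.6 kb. The segments of state 4 that held them were short, with a median of 1000 bp, against 1200 bp for the segments of other distal sites. State 11, whose segments at its own distal sites had a median of 8300 bp, lay on at least 1 side of 6491 state 4 sites (78.9%) and on both sides of 3235 (39.3%). States 3, 2 and 9 adjoined 1636, 1557 and 1529 sites. Median GC content in 300 bp about the midpoint was 44.0%, against 49.0% at the other distal sites. The ratio of observed to expected CpG was 0.179, against 0.242, and 10.5% of the windows held no CpG at all, against 4.64%. The sites lay in intergenic DNA (4049, 49.2%), in introns (3962, 48.1%) or in exons (218, 2.65%). Every autosome held some, between 169 on chromosome 19 and 701 on chromosome 1, and they made up between 11.0% of the distal sites of chromosome 11 and 22.2% of those of chromosome 3. Of the 8229 sites, 7712 had at least 50% of their bases in state 4 and 4346 lay wholly within it.

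State 4 sites seldom coincided with a region of the deposited histone tables. A region of H3K9ac, a mark of active regulatory DNA, overlapped 2505 sites (30.4%), against 75.1% of the other distal sites and 88.0% of those in state 3. A region of H3K4me3, the mark of promoters and of PRDM9-bound sites, overlapped 1149 (14.0%), against 49.9%. States 5 and 11 were poorer still in H3K4me3, at 12.8% and 1.79% of their distal sites. Both kinds were present at 682 state 4 sites, and neither at 5257 (63.9%), against 21.2% of other distal sites and 61.4% of those in state 11 without either. B6 H3K9ac replicates 1 and 3 were among the libraries behind the segmentation, so the H3K9ac share is not independent of how the sites were chosen, and no label ties H3K4me3 to the segmentation. A region of the separately called Hells ATAC table overlapped 6051 state 4 sites (73.5%), close to the 74.3% of the other distal sites. A region of the F1 table overlapped 1391 (16.9%), against 50.5%. These shares are descriptions and were not tested across regions.

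Accessibility at state 4 sites was somewhat below that of other distal sites. Levels are given as CPM, divided by region width in kb where sites are compared. CPM scales a count by all counts that its library has in regions, times a scaling factor for that library (TMM). The median ATAC level was 6.45 and 6.91 CPM per kb in the KI libraries and 5.59 and 6.30 CPM per kb in the B6 libraries. The other distal sites stood at 7.33 and 7.47 CPM per kb in KI and at 6.12 and 6.61 CPM per kb in B6, above state 4 in each of the 4 libraries. State 11 sites read 7.81 and 7.58 CPM per kb in KI and 4.71 and 4.87 CPM per kb in B6, below state 4 in B6 only. In the Hells table the state 4 medians were 5.57, 5.39 and 6.4 CPM per kb in CKO and 5.83 and 5.76 CPM per kb in wt, against 8.16, 8.06 and 9.74 CPM per kb in CKO and 8.56 and 8.41 CPM per kb in wt at state 3 sites. The KI medians lay above the B6 medians, and the CKO and wt medians overlapped. A state 4 site held a median of 81 to 103 reads per library in the KI and B6 table. The log2 difference between replicates had an SD over these sites of 0.277 in KI and 0.473 in B6, so the B6 pair limited the precision.

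**Figure D1:**
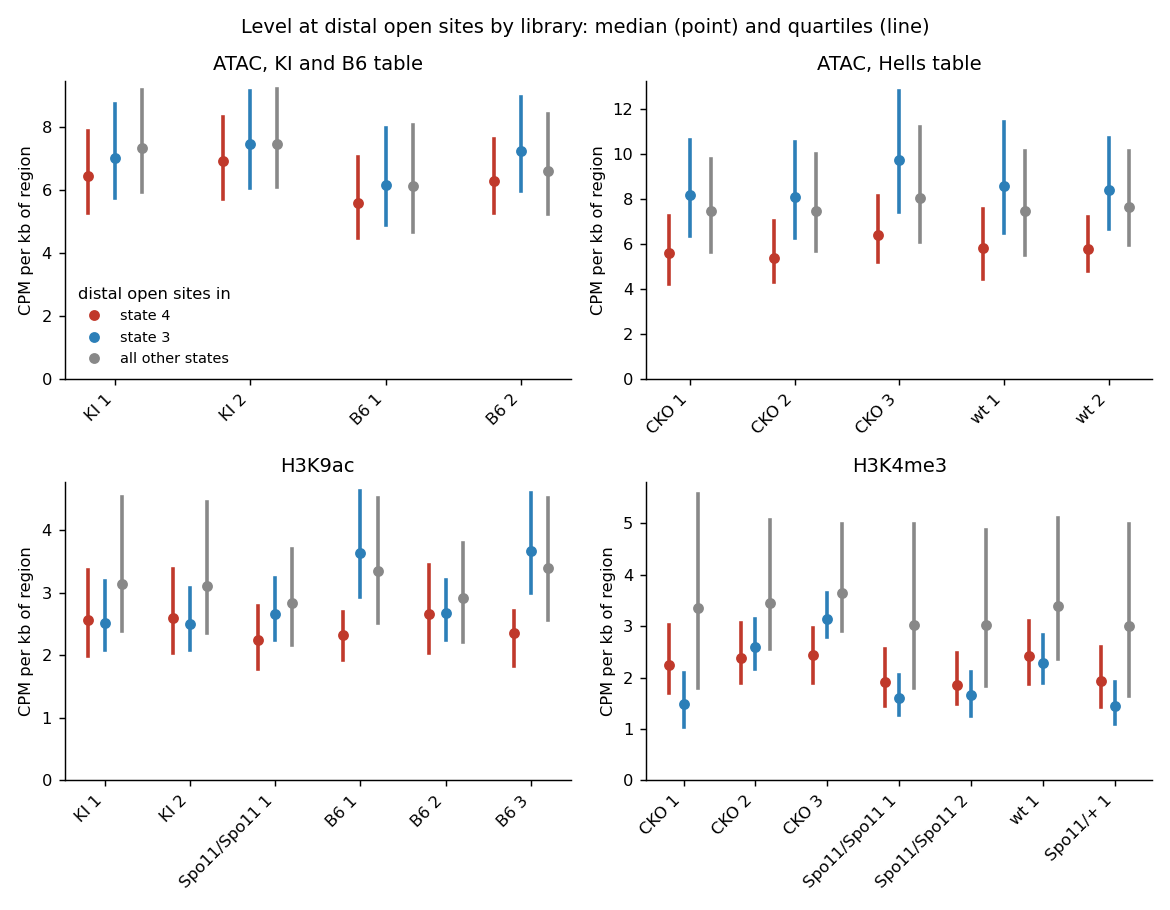
Median level (points) and quartiles (lines) of distal open sites in CPM per kb of region, for each library of the 4 count tables, with state 4, state 3 and all states other than 4 side by side. State 4 sites sit below state 3 sites in every ATAC library, for example 6.45 against 7.03 CPM per kb in KI 1, and their H3K9ac medians lie between 2.24 and 2.66 CPM per kb.

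Where an H3K9ac region was present, its median level lay in a narrow range across genotypes. Over the 2505 sites it was 2.56 and 2.59 CPM per kb in KI, 2.24 CPM per kb in Spo11/Spo11 and 2.33, 2.66 and 2.35 CPM per kb in B6. B6 replicate 2 stood apart from the other B6 libraries in this table. At state 3 sites it read 2.67 CPM per kb, against 3.64 and 3.66 CPM per kb in B6 replicates 1 and 3. Median H3K4me3 over the 1149 sites was 2.24, 2.39 and 2.44 CPM per kb in CKO, 1.91 and 1.86 in Spo11/Spo11, 2.41 in wt and 1.94 in Spo11/+. The CKO and wt libraries stood above all 3 libraries of the Spo11 line.

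None of the most open state 4 sites passed the test between KI and B6. The 8 with the highest mean ATAC level read 16.6 to 26.1 CPM in KI and 15.2 to 25.5 CPM in B6. They lie in introns of Arhgap26, Wt1os, Gm47143 and Nms (the neuropeptide neuromedin S) and in intergenic DNA nearest to the starts of Gm12469, Gm14461, Gm13471 and Gm25622. The site in the Wt1os intron (chr2:105108568-105109387) read 25.1 and 26.1 CPM in KI and 25.5 and 16.9 CPM in B6. Its KI and B6 ranges overlapped, and the site read 28.2, 21.8 and 29.5 CPM in CKO and 32.4 and 22.9 CPM in wt. The Arhgap26 site read 23.0 and 25.9 CPM in KI and 24.6 and 20.4 CPM in B6. Again the groups overlapped, and the log2 change was 0.12 ± 0.16 (SE; adjusted p = 0.87, edgeR). None of the 8 held a DMRT match within 150 bp of the midpoint.

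The DMRT element was more frequent at state 4 sites than at other distal sites. It was present in 724 of 8229 state 4 sites (8.80%, exact 95% binomial interval 8.19% to 9.43%) and in 1322 of 41602 other distal sites (3.18%), a ratio of 2.77. Among the other states the share was highest in state 3 (5.33%), then state 5 (3.62%), and it was 1.21% in state 11. Over whole regions, which are narrower in state 4, the shares were 10.1% and 4.78%. The difference was present at matched GC content as well. In windows of 35 to 40% GC the element was present in 10.4% of state 4 sites and 5.54% of other distal sites, and in windows of 50 to 55% GC in 5.1% and 2.01%. The interval covers counting error only, and no test across regions was made.

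The DMRT matches crowded at the centre of the sites. Of 1168 matches within 500 bp of a state 4 midpoint, 488 (41.8%) lay within 50 bp of it and 74 (6.34%) lay more than 400 bp away. At the other distal sites 729 of 2806 matches (26.0%) lay within 50 bp. Matches to the FOX motif TGTTTAC showed no such centre, with 154 of 1490 (10.3%) within 50 bp at state 4 sites. AP-1 matches (TGANTCA) were weakly centred, with 14.0% within 50 bp.

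**Figure D2:**
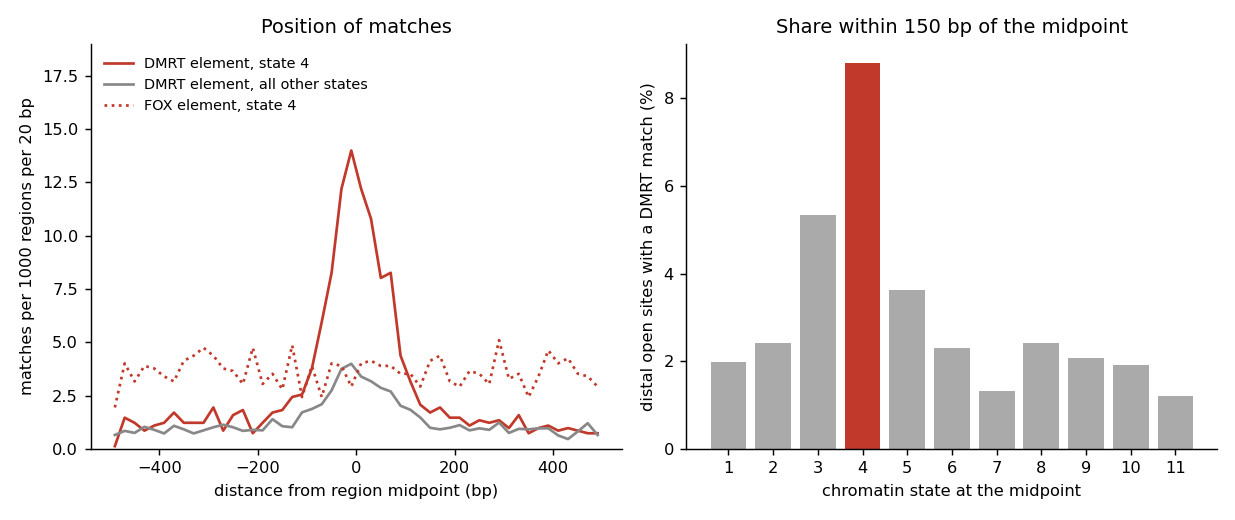
Left, matches per 1000 regions in 20 bp bins by distance from the region midpoint (bp), for the DMRT element at state 4 sites and at distal sites of all other states, and for the FOX element at state 4 sites. Right, the share (%) of distal open sites with a DMRT match within 150 bp of the midpoint in each chromatin state. State 4 has 8.80%, the highest of the 11 states, and its matches peak at the midpoint.

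A count of all 32896 words of 8 letters, each pooled with its reverse complement, put the same element on top. Ranked by the difference in share between state 4 and other distal sites, ACATTGTA, the reverse complement of TACAATGT, ranked highest. ACAATGTA, the same core shifted by 1 base, came next (703 sites, 8.54%, against 3.18%). Both words together stood in 340 state 4 sites (4.13%), against 1.30% of other distal sites, and at least 1 of them in 1087 (13.2%), against 5.05%. The words after them were AACATTGT (7.12% against 3.13%), ACAAAGTA (6.65% against 2.9%) and AACAATGT (7.11% against 3.43%). Of these, AACATTGT (on its minus strand) and AACAATGT share the letters ACAATG with the element. The ranking was made after the values were seen.

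The DMRT share was lowest in the most open quartile of state 4 sites. By quartile of ATAC level, low to high, it was 9.09%, 8.95%, 10.5% and 6.66%. By quartile of TSS distance it lay between 8.36% and 9.24%. Per autosome it ran from 6.56% to 12.9%. Sites next to a state 3 segment had the element more often (11.2%) than sites next to state 9 (6.67%) or state 2 (5.65%). Sites without an H3K9ac region had it in 9.78% of cases and sites with such a region in 6.55%. An H3K4me3 region overlapped 5.8% of sites with the element and 14.8% of sites without it. The ATAC level of sites with the element, 6.16 and 6.82 CPM per kb in KI and 5.73 and 6.06 CPM per kb in B6, was close to that of sites without it, 6.49 and 6.92 CPM per kb in KI and 5.58 and 6.33 CPM per kb in B6.

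Motifs of promoter factors were rare at state 4 sites. The cAMP response element TGACGTCA of CREB and CREM was present in 0.158% of state 4 sites, against 0.555% of other distal sites. The NRF1 motif was present in 1 site (0.0122%), against 0.288%. The ETS motif ACCGGAAGT was present in 2 sites, and the SP and KLF motif GGGGCGGGG in 0.729%, against 1.88%. The E-box CACGTG was found in 3.52% against 5.64%. In states 3, 5 and 11 the NRF1 motif was present in 0, 0 and 1 sites. The ETS motif was present there in 0.0457%, 0.0521% and 0.0517%, against 0.0243% in state 4. The SP and KLF motif stood at 1.01%, 0.808% and 0.345%. The cAMP response element (0.335%, 0.313% and 0.259%) and the E-box (4.5%, 4.53% and 4.08%) were more frequent there than in state 4. These shares were not compared at matched GC content. The AP-1 motif (12.4% against 10.4%), the GATA motif AGATAAG (7.25% against 6.11%), the SOX motif (2.13% against 1.41%) and the short CTCF motif (2.5% against 2.17%) were somewhat more frequent at state 4 sites, and the CTCF core AGGGGGCGC was less frequent (1.02% against 1.41%). Single states exceeded state 4 for the GATA motif (8.86% in state 3), the short CTCF motif (3.47% in state 5, 3.65% in state 11) and AP-1 (12.6% in state 5). The SOX motif did not exceed the state 4 share in states 3, 5 or 11 (1.99%, 1.15% and 0.931%). All motifs were searched on both strands in the same 300 bp windows. Over whole regions, which are narrower in state 4, the AP-1 (18.7% against 20.3%), GATA (10.7% against 11.2%) and short CTCF (2.62% against 2.7%) shares were lower at state 4 sites, and the SOX share was still higher (3.21% against 2.78%). A match is a run of letters and does not show that a factor binds.

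A small set of state 4 sites was far more open in KI than in B6 cells, and no site was called the other way. At a Benjamini-Hochberg adjusted p of 0.05 over all regions of the table (edgeR quasi-likelihood test), 168 of 8229 state 4 sites were higher in KI (2.04%) and 0 were lower. Before adjustment 443 had a p under 0.05. DESeq2 called 151 higher and 0 lower. Among all 81887 regions of the table, the higher share was 7.14% and the lower share 2.27%, so the state 4 shares lay below the background in both directions. The lower calls of the table lay almost wholly outside the criteria used here, which remove DMC1 sites, with 17 lower of 41602 other distal sites. The higher calls numbered 3770 (9.06%) there, 171 (1.3%) in state 3 and 1922 (33.1%) in state 11. The median log2 change was 0.12 over state 4 sites, close to the 0.10 over the other distal sites, and 0.02 over all regions. In states 3, 5 and 11 it was 0.06, 0.11 and 0.35. Without B6 replicate 1 the test called 675 state 4 sites higher and 430 lower, and without B6 replicate 2 it called 639 higher and 19 lower. Without KI replicate 1 it called 123 higher and without KI replicate 2 it called 132 higher, and 117 of the 168 were called in each of the 4 fits. The labels' library names carry a different run code for the KI and for the B6 libraries, so strain and run code cannot be told apart, and the regions are those of a table made from these same strains.

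Among the 168 KI-higher sites the change was large. Their median level was 9.26 and 8.98 CPM per kb in KI and 2.45 and 2.39 CPM per kb in B6, with log2 changes of 1.34, 1.93 and 2.55 at the quartiles. In B6 they thus stood far below the state 4 median of 5.59 and 6.30 CPM per kb, and in KI above it. These levels describe the sites that the test selected.

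The site with the lowest p lay in an intron of Hormad2, which encodes a HORMA-domain protein of the meiotic chromosome axis (chr11:4368220-4370044, the sequence of 300 bases above). It read 29.3 and 28.3 CPM in KI and 3.71 and 2.67 CPM in B6. The groups were far apart, with a log2 change of 3.18 ± 0.199 (SE; adjusted p = 4.9e-07, edgeR). A site in an intron of Zdhhc14, a palmitoyltransferase gene, whose nearest coding start is that of Snx9 (chr17:5675852-5677126), read 18.4 and 17.1 CPM in KI and 2.30 and 2.49 CPM in B6. An intergenic site whose nearest coding start is that of the LIM-homeobox gene Isl1, 515 kb away (chr13:115787715-115788412), read 12.6 and 11.8 CPM in KI and 1.22 and 1.29 CPM in B6, the steepest of the 5 at a log2 change of 3.27. A site 30.6 kb upstream of Dok5, which encodes a docking protein of receptor tyrosine kinases (chr2:170699972-170701231), read 18.2 and 17.5 CPM in KI and 2.76 and 2.78 CPM in B6. A site upstream of the zinc-finger gene Klf6 (chr13:6044077-6045002), with its AAAGGTCA match printed above, read 12.7 and 11.8 CPM in KI and 1.58 and 1.72 CPM in B6. All 5 were called in each of the 4 fits that left out a library.

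**Figure D3:**
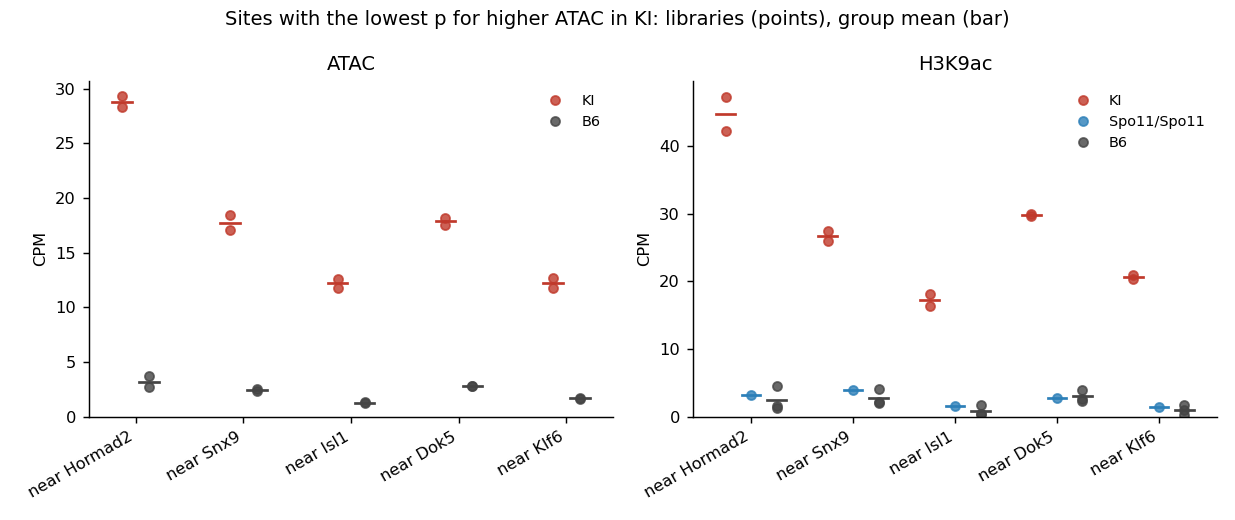
CPM at the 5 state 4 sites with the lowest p for higher ATAC in KI, labelled by the nearest coding gene start, with ATAC at left and H3K9ac at right. Points are libraries and bars group means (2 KI and 2 B6 ATAC libraries; 2 KI, 1 Spo11/Spo11 and 3 B6 H3K9ac libraries). KI libraries lie above all others at each site, for example 42.3 and 47.3 CPM of H3K9ac near Hormad2, against 3.21 CPM in Spo11/Spo11 and 1.19, 4.53 and 1.57 CPM in B6.

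The KI-higher sites had other shares of regions in the remaining tables than the rest of state 4. An H3K9ac region overlapped 153 of 168 (91.1%), against 29.2% of the other 8061 state 4 sites. The H3K9ac table includes KI libraries, so a site high in KI may have a region there through KI alone. A region of the F1 table, which comes from another cross, overlapped 150 (89.3%), against 15.4%. A region of the Hells ATAC table overlapped 42 (25%), against 74.5%. An H3K4me3 region overlapped 21 (12.5%), against 14.0%. They were less often intergenic (39.3% against 49.4%), and the DMRT element was present in 9 (5.36%), against 8.87%. At least 1 of the 5 words taken from KI-higher sites of other states was present in 30 of the 168 (17.9%) and in 681 of the 8061 other state 4 sites (8.45%). At the other distal sites the share was 22.7% of 3770 KI-higher sites and 7.24% of the rest. These state 4 sites had no part in the choice of the words.

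H3K9ac was higher in KI at part of the state 4 sites where it was measured. Of the 2505 state 4 sites with an H3K9ac region (2471 distinct regions), 258 were higher in KI (10.3%) and 2 were lower. Before adjustment 374 had a p under 0.05, and DESeq2 gave 271 higher and 1 lower. The background over all 91909 regions of the table was 12.1% higher and 0.208% lower, so the state 4 shares were near the background. The median log2 change was −0.02 over state 4 sites and −0.07 over all regions. Because B6 H3K9ac was among the marks behind the segmentation, this contrast is not independent of how the sites were chosen. The count rested on single libraries. It was 187 without B6 replicate 1, 610 (with 272 lower) without B6 replicate 2, 83 without B6 replicate 3 and 0 without either KI library. Marker promoters differed in this table as well. The summed H3K9ac of 6 germ cell markers was 241 to 251 CPM in KI and 175 to 221 CPM in B6, and that of the blood markers with a region (3 of 4, not Adgre1) was 10.3 to 14.5 CPM in KI and 2.55 to 6.49 CPM in B6, with the Ptprc region called higher. The sums of 4 Leydig markers (40.6 to 44.9 CPM in KI, 43.3 to 83.1 CPM in B6), of 6 Sertoli markers (334 to 454 CPM in KI, 355 to 467 CPM in B6) and of 5 peritubular, stromal and endothelial markers (116 to 123 CPM in KI, 117 to 164 CPM in B6) overlapped between the strains, with 0 calls, although the median log2 change of the Leydig markers was −0.59. The part of these cells in the H3K9ac calls was not tested.

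The ATAC and H3K9ac calls overlapped in large part. Of the 153 ATAC-higher sites with an H3K9ac region, 141 (92.2%) were also higher in H3K9ac, and these were 54.7% of the 258. At the 153 sites the median H3K9ac level was 8.61 and 9.60 CPM per kb in KI, 1.38 in Spo11/Spo11 and 0.792, 1.55 and 0.820 in B6, with a median log2 change of 3.27. A further 117 sites were higher in H3K9ac and not called in ATAC. Their ATAC log2 change was above 0 at 99 of them, with a median of 0.30. The 12 sites called in ATAC alone had an H3K9ac region that did not pass the test.

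**Figure D4:**
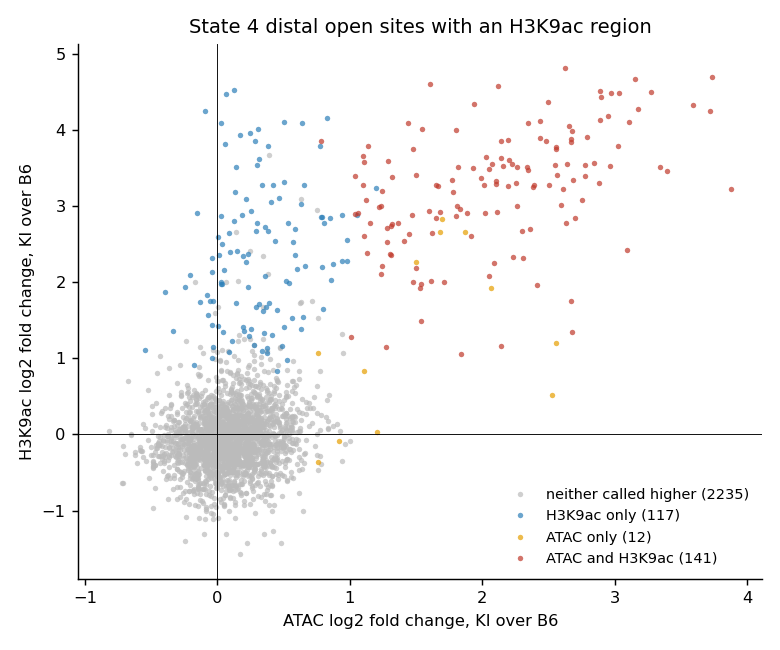
Log2 change in KI over B6 of H3K9ac (vertical) against ATAC (horizontal) at the 2505 state 4 sites with an H3K9ac region, 1 point per site, coloured by which test called it higher. The 141 sites called in both lie at the upper right, and the 117 called in H3K9ac alone lie above the main cloud, with a median ATAC change of 0.30.

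The sites with the lowest p for H3K9ac were of both kinds. In an intron of Galnt16, which encodes an enzyme that starts O-linked glycosylation, H3K9ac was 32.6 and 39.1 CPM in KI, 4.28 CPM in Spo11/Spo11 and 3.23, 2.64 and 3.36 CPM in B6 (log2 change 3.53 ± 0.195 for KI, SE; adjusted p = 0.0045, edgeR). Its ATAC level was 2.33 and 2.41 CPM in KI and 2.40 and 1.46 CPM in B6, with overlapping ranges, and the H3K9ac region overlapped only 17.4% of the site. In an intron of Rlf, a zinc-finger gene, H3K9ac was 49.1 and 57.6 CPM in KI, 5.35 CPM in Spo11/Spo11 and 4.48, 5.98 and 4.70 CPM in B6. There ATAC was 3.26 and 3.56 CPM in KI and 1.38 and 1.03 CPM in B6 and passed its own test (log2 change 1.5; adjusted p = 0.0057, edgeR). Sites in introns of Grb10, an imprinted adaptor gene, and of Galnt7, and a site in an Atp8a2 intron near Shisa2, completed the 5, with H3K9ac of 19.1 to 28.3 CPM in KI and 2.48 to 3.65 CPM in B6. The site in the Grb10 intron carried a DMRT match. Each of the 5 was called in 3 of the 5 fits that left out a library. The 2 lower sites were near Dusp26, a dual-specificity phosphatase gene (9.90 and 8.35 CPM in KI, 21.3, 30 and 22.3 CPM in B6, log2 change −1.42), and near Basp1 (1.16 and 1.21 CPM in KI, 2.97, 2.77 and 3.65 CPM in B6).

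In the F1 hybrid the KI-higher sites leaned towards the B6 allele. Alleles were compared within each library, at regions with at least 20 allele counts. Of the 1264 state 4 sites tested (1247 distinct regions), 93 were higher on the B6 allele (7.36%) and 66 on the CAST allele (5.22%). Before adjustment 289 had a p under 0.05. Over all 70654 regions tested the shares were 8.22% and 5.53%, so state 4 as a whole lay near the background. At all tested sites of state 11 the shares were 24.7% and 3.31%, and of state 5 12.6% and 3.76%. At the other distal sites they were 9.47% and 3.43%, so a lean to the B6 allele was not particular to state 4. DESeq2 called 24 and 15. The median log2 ratio of B6 over CAST was 0.04, against 0.03 over all regions. Of 140 KI-higher sites tested, 27 were higher on the B6 allele and 4 on the CAST allele, with a median ratio of 0.23. Of the 1124 other state 4 sites, 66 and 62 were, with a median of 0.01. The B6 allele held 59.0% and 58.2% of the ATAC counts at KI-higher sites in the F1 libraries and 60% of the H3K9ac counts. It held 49.4%, 49.5% and 49.4% at the other state 4 sites and 51.0%, 50.9% and 51.9% over all regions tested. KI-higher sites were chosen on a B6 background, so a site open only on CAST sequence could not be among them. Their lean to the B6 allele is therefore not independent of this choice. The difference between KI-higher and other state 4 sites was not tested.

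**Figure D5:**
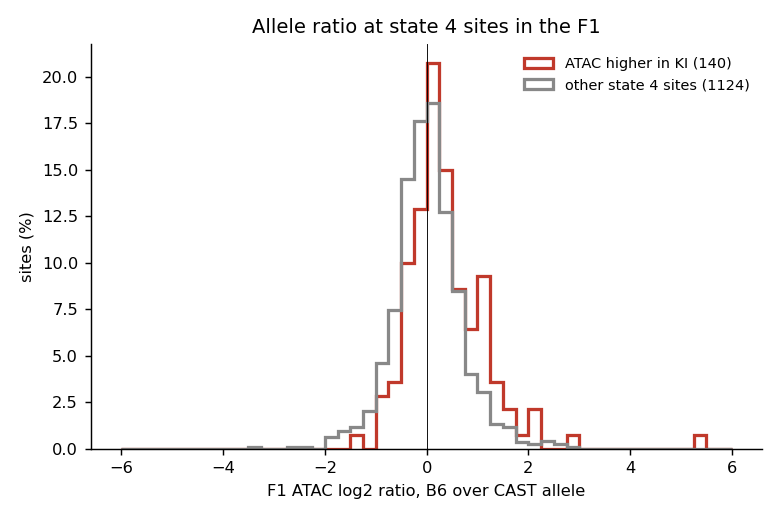
Distribution of the F1 ATAC log2 ratio of B6 over CAST allele counts at state 4 sites, as a percentage of sites per bin of the ratio, for 140 sites higher in KI and 1124 other state 4 sites. The KI-higher sites extend further to the right, with a median of 0.23, against 0.01 for the others.

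Single sites showed strong allelic imbalance in both libraries. Near Maf, a bZIP transcription factor gene (chr8:115653959-115654413), the B6 allele had 1024 and 1022 ATAC counts and the CAST allele 25 and 22, a log2 ratio of 5.44 ± 0.128 (SE; adjusted p = 1.1e-15, edgeR). The same site rose in KI, at 5.66 and 5.68 CPM in KI and 0.296 and 0.545 CPM in B6, and it holds the AGTCACAT match printed above. The Hormad2 site had 344 and 270 B6 counts and 42 and 41 CAST counts, and the Dok5 site 182 and 168 B6 counts and 37 and 50 CAST counts. Of the 5 KI-higher sites with the lowest p, the Zdhhc14 site was even, with 151 and 126 B6 counts and 181 and 113 CAST counts. In a Grm8 intron the B6 allele had 206 and 155 counts and the CAST allele 28 and 35. There H3K9ac rose in KI (log2 change 4.52), but ATAC did not pass the test. Near the heat-shock factor gene Hsf2, the B6 allele had 138 and 141 ATAC counts and the CAST allele 29 and 28, while the H3K9ac counts ran the other way, with 20 on the B6 and 49 on the CAST allele.

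The 5 sites with the lowest p for a higher CAST allele did not pass the test between KI and B6. Near Sox17, an SRY-related factor gene (chr1:4543882-4544469), the B6 allele had 28 and 39 counts and the CAST allele 390 and 292, a log2 ratio of −3.33 ± 0.185 (SE; adjusted p = 1.6e-10, edgeR). That site read 3.94 and 2.64 CPM in KI and 3.06 and 3.90 CPM in B6. Near the ephrin receptor gene Epha3 the B6 allele had 62 and 50 counts and the CAST allele 271 and 325. A site near the netrin receptor gene Dcc, a site in an intron of the phosphatase gene Ptprt and a site near the homeobox gene Barhl2 had log2 ratios of −1.79, −2.68 and −1.78. The Ptprt and Barhl2 sites carried a DMRT match. The deposited allele counts carry the name EMASE, but how reads were assigned to alleles is not described further in the sources used here. The part of that step in these ratios was not tested.

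Loss of HELLS left no call at state 4 sites in ATAC. Of the 6051 sites with a region in the Hells table (6029 distinct regions), edgeR called 0 higher and 0 lower in CKO than in wt. Before adjustment 5 had a p under 0.05, and DESeq2 gave 0 calls. Over all 95033 regions tested 0% were higher and 0.382% lower. Of the 30919 other distal sites tested, 0 were higher and 0 lower as well. Regions with a HELLS or DMC1 peak had been removed from both sets beforehand, so these counts do not cover such regions. The median log2 change was 0.01 over state 4 sites and over all regions. With the library batch, read from the codes in the labels' library names, as a block, 0 sites were higher and 2 lower, and 264 had a p under 0.05 before adjustment. Within the 2 batches that held both genotypes, the medians of CKO over wt were −0.07 and −0.06, against −0.03 and −0.03 at the other distal sites. The 42 KI-higher sites present in this table had a median of 0.06 and no call. A state 4 site had a median of 23 to 42 reads per library here, fewer than in the KI and B6 table.

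H3K4me3 fell at 5 of 1149 state 4 sites in CKO against wt. None was higher. Set against wt, Spo11/+ and Spo11/Spo11 together, CKO had 25 sites higher and 10 lower, and the median log2 change turned to 0.17, so the direction depended on the control. Before adjustment 28 had a p under 0.05, and DESeq2 gave 0 higher and 3 lower. Over all 78959 regions 0.0279% were higher and 11.7% lower, and 66 of 20743 other distal sites (0.318%) were lower. The wt group is 1 library, assumed to vary like the others. The median log2 change was −0.025 over state 4 sites and −0.02 over all regions. The site near Gm12962 (chr4:131624835-131625285) read 1.31, 2.32 and 2.09 CPM in CKO and 9.78 CPM in wt. The Spo11/Spo11 libraries (10.7 and 10.8 CPM) and the Spo11/+ library (12.2 CPM) stood with wt, and the log2 change was −2.38 ± 0.305 (SE; adjusted p = 0.00059, edgeR). The site was also among the KI-higher sites, at 4.30 and 4.13 CPM of ATAC in KI and 0.986 and 0.459 CPM in B6. In an intron of Atrn, which encodes the membrane protein attractin, H3K4me3 was 0.342, 0.464 and 0.147 CPM in CKO and 2.20 CPM in wt (log2 change −2.81). The other 3 lay in introns of Slc37a1 and Prkce and in an exon of Adh6a, with log2 changes of −2.88, −1.19 and −1.84. The H3K4me3 region covered 31.0% of the Gm12962 site, 40.5% of the Atrn site and 2.46% of the Slc37a1 site, so these values are mostly those of flanking DNA. Only the Prkce site was covered in full, and it was called in 1 of the 3 fits that left out a CKO library. The summed H3K4me3 of 6 Sertoli marker promoters was 477 to 691 CPM in CKO and 434 CPM in wt, and that of 6 germ cell markers 177 to 291 CPM in CKO and 207 CPM in wt, with 0 calls, and the part of these cells in the H3K4me3 values was not tested. The count of lower sites was 10 without CKO replicate 1 and 2 without CKO replicate 3.

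The Spo11 mutation left no call either. For H3K9ac in Spo11/Spo11 against B6, edgeR called 0 of 2505 state 4 sites higher or lower. Before adjustment 39 had a p under 0.05, and DESeq2 gave 2 higher. Over all 91909 regions 0% were called. The Spo11/Spo11 group is 1 library, and without B6 replicate 2 the test called 217 sites higher and 121 lower. The median log2 change was −0.10 over state 4 sites and 0.01 over all regions. For H3K4me3 in Spo11/Spo11 against Spo11/+, edgeR and DESeq2 each called 0 of 1149 state 4 sites, and 2 had a p under 0.05 by edgeR before adjustment. Of all 78959 regions tested, 0% were called. Within the batch that held both genotypes the median was −0.01.

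State 4 sites near genes known for the testis were few in number. Sites were assigned here to the nearest TSS of a protein-coding gene, even where another TSS lay nearer. It lay within 100 kb for 5604 state 4 sites, 13.8% of the 40739 distal sites with such a gene, and 123 of these state 4 sites were KI-higher. Near 38 meiotic genes lay 3 state 4 sites of 23 distal sites (13%), close to that share, and they belonged to Hormad2, to Ythdc2, an RNA helicase gene needed for meiotic entry, and to Rec114, whose product promotes SPO11 breaks. The Hormad2 site changed, as above. The Rec114 site read 2.72 and 3.05 CPM in KI and 3.85 and 2.01 CPM in B6, and the Ythdc2 site 5.12 and 5.40 CPM in KI and 3.88 and 4.24 CPM in B6, and neither passed the test. Near 21 spermatogonial genes lay 4 of 74 distal sites (5.41%), at Etv5, Kit and Ret, and none was called. Near 20 pachytene and spermatid genes lay 3 of 21 (14.3%), at Ccna1, the cyclin A gene of meiosis, and at Pou5f2. Of the Ccna1 pair, the site at chr3:55070820-55071198 read 3.08 and 3.56 CPM in KI and 0.296 and 0.201 CPM in B6 (log2 change 3.73 ± 0.403, SE; adjusted p = 2.1e-05, edgeR). The site 22.4 kb from the nearest TSS, at chr3:55080011-55080623, read 5.05 and 5.68 CPM in KI and 5.62 and 4.90 CPM in B6, with overlapping ranges.

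Sites near somatic genes were present as well, and none passed the test in KI. Near 17 Sertoli cell genes lay 5 of 79 distal sites (6.33%), at Wt1, Tjp1 and Fshr. The site in an intron of Fshr, the follicle-stimulating hormone receptor gene, read 5.12 and 6.51 CPM in KI and 5.06 and 7.48 CPM in B6. Near 9 Leydig cell genes lay 1 of 22 (4.55%), near 15 peritubular, stromal and endothelial genes 6 of 80 (7.5%), and near 8 blood cell genes 2 of 9 (22.2%), both at Ptprc. No state 4 site lay near 12 housekeeping genes, which had 4 distal sites in all.

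Promoters of somatic markers were open in these cells. In the KI and B6 table all 6 germ cell marker promoters had a region, with a summed ATAC level of 312 to 341 CPM in KI and 312 to 422 CPM in B6. All 6 Sertoli cell marker promoters also had one, with 169 to 179 CPM in KI and 160 to 193 CPM in B6. Regions were found for 2 of 4 Leydig markers (not Cyp11a1 or Insl3), for 3 of 5 peritubular, stromal and endothelial markers (not Cdh5 or Pecam1) and for 0 of 4 blood markers. In the Hells table the germ cell sum was 116 to 244 CPM in CKO and 165 to 265 CPM in wt, and the Sertoli sum 277 to 330 CPM in CKO and 282 to 314 CPM in wt. In bulk cells, fewer cells of a type and less accessible DNA per cell cannot be told apart. The part of somatic cells in the DMRT-bearing and other state 4 sites was not tested.

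At the top of the histone tables were sites close to other marked DNA. A site in an intron of Elp5 had the highest H3K9ac of any state 4 site, at 134 and 113 CPM in KI, 142 CPM in Spo11/Spo11 and 117, 113 and 111 CPM in B6. A pair of sites near Sfi1 and the pseudogene Pisd-ps1 shared 1 H3K9ac region, which read 152 CPM in Spo11/Spo11, 48.9 and 51.2 CPM in KI and 22.5, 32.0 and 17.5 CPM in B6. Neither contrast passed there (adjusted p = 0.92 for Spo11/Spo11 and 0.059 for KI, edgeR), and a pseudogene can share reads with its parent gene. The highest H3K4me3 was near Ddx1, an RNA helicase gene, at 55.5, 37.8 and 49.6 CPM in CKO and 35.3 CPM in wt, followed by sites in a Krt28 intron and near Btn2a2. At the limit of the distance criterion, the nearest site above 1 kb lay in an exon of Tnfsf13b and was KI-higher, at 3.87 and 4.41 CPM in KI and 0.723 and 0.602 CPM in B6. The nearest left out lay 0.999 kb from the start of Gm36259 and read 3.01 and 3.56 CPM in KI and 3.42 and 2.15 CPM in B6.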

How the data were processed

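The deposited tables of ATAC, H3K9ac and H3K4me3 hold raw counts of reads per region that the authors did not normalise, and the F1 table holds deposited estimated counts per allele, which were rounded. The deposited segmentation and peak lists give positions. The submitters' processing notes name CASAVA, BWA 0.7.15, Bowtie 0.12.9, MACS 1.4.2 and mm10, and which tool made which file is not given in the sources used here. Starts were read as BED and are printed 1-based. Total counts per library were 27952728 to 34572929 (KI and B6 ATAC), 6416704 to 11352108 (Hells ATAC), 13195275 to 30233934 (H3K9ac), 13321006 to 42007820 (H3K4me3) and 3125377 to 5003968 per F1 allele. Another 10 columns matched no sample by name and stayed out, as did 56 repeated rows of the Hells ATAC table. KI and B6 ATAC columns name the strain only, so their replicate numbers name columns.

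Counts were tested over all regions of a table with edgeR 4.0.16 in R 4.3.3 (quasi-likelihood test, TMM, filterByExpr, Benjamini-Hochberg adjustment, threshold 0.05), after a check on simulated data, and DESeq2 1.42.0 served as an alternative. The H3K9ac and H3K4me3 fits held all groups of their table. F1 fits had the library as a block, no TMM and a minimum of 20 allele counts. A site was read in another table through the region that overlapped it most, by at least 1 bp. Genes were taken from GENCODE and sequence from the mm10 reference, and words and motifs were searched with Python 3.11.15 in 300 bp windows. Alternatives were other scaling factors, no filter, libraries left out, a batch block, stricter overlap, 50% of bases in state 4 and a TSS distance over 5 kb. The labels do not say whether replicates are separate animals, and p-values therefore reflect the spread among these libraries, which may be technical. The sites, gene lists and motifs were chosen with earlier results of these data known. Named sites are the 8 most open, up to 5 called sites per comparison and direction with the lowest p, up to 3 per gene list, the 3 highest per histone table and those nearest the 1 kb limit, except where chosen after the values were seen. ATAC libraries of DBA/2J and of the Spo11 genotypes were not used here.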

Additional observations from a re-analysis of the deposited data

How the results depend on the processing

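Of 227 values recomputed under another setting, 183 were kept and 44 moved. Kept means within 1.5 times for a count, within the SD between replicates for a median (in the F1, between the fits without a library) and within the exact 95% interval for a share. Medians near 0 changed sign. That of Hells ATAC was −0.07 without CKO replicate 3 and with the batch block, that of H3K9ac in KI against B6 was 0.07 without B6 replicate 2 and 0.006 with 50% of bases in state 4, that of H3K4me3 in CKO against wt was 0.08 with RLE factors and with DESeq2, 0.001 without CKO replicate 3 and 0.17 against all HELLS-competent groups, and that of H3K4me3 in Spo11/Spo11 was 0.002 to 0.003 with RLE factors, library size alone and DESeq2. Leaving out libraries moved the counts most. For ATAC in KI against B6 the higher sites ranged from 123 to 675 and the lower from 0 to 430. For H3K9ac in KI against B6 they ranged from 0 to 610 and from 0 to 272, and in Spo11/Spo11 against B6 from 0 to 217 and from 0 to 121. For H3K4me3 in CKO against wt they ranged from 0 to 2 and from 2 to 10. The fits of Hells ATAC and of H3K4me3 in Spo11/Spo11 made no call at state 4 sites under any library left out. Lower ATAC sites in KI numbered 1 with RLE factors, and lower Hells ATAC sites in CKO 2 with the batch block. Lower H3K9ac sites in KI numbered 8 by library size alone, and 1 each with DESeq2, over 5 kb from a TSS and with an overlap of at least 50% of the site. Higher H3K9ac sites in Spo11/Spo11 numbered 2 with DESeq2. For H3K4me3, CKO against all HELLS-competent groups gave 25 higher and 10 lower, DESeq2 gave 3 lower and the 50% overlap 1 lower. In the F1, DESeq2 gave 24 and 15. The DMRT share was 10.1% over whole regions, the H3K9ac share 28.8% with 50% of bases in state 4, and the intergenic share 51.3% over 5 kb from a TSS. The causes were not tested. Scaling shifted the median of all H3K4me3 regions in CKO against wt to 0.09 (RLE) or −0.17 (library size alone) and that of H3K9ac regions in KI against B6 to −0.22 (library size alone), and medians near 0 should be read against these shifts. Without F1 replicate 1 the median allele ratio was 0.03. No paired analysis was possible because the labels give no shared replicate numbers. The blocks used are the library batch (Hells ATAC) and the library (F1), and the H3K4me3 batch block could not be fitted because it left no residual degrees of freedom. Depth was lowest in the Hells ATAC table, at 23 to 42 reads per site and library, and what size of change this depth can show was not measured.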
